A study of Mus musculus with 16 samples.

Results

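Untreated bone marrow-derived dendritic cells (BMDCs) from mice lacking both Irf3 and Irf7 were compared with untreated wild-type BMDCs. The comparison rests on 4 of the 16 samples of the series, 2 Irf3/7-/- and 2 wild-type, and was made across 11004 genes with at least 1 FPKM (fragments counted per kilobase of gene and scaled to library size) in either condition, out of 23356 in the deposited table. The strain label was C57BL/6 in both groups, and neither group received c-di-GMP during the 18 h in which the parallel cultures of the study were stimulated. The wild-type mice carried both genes, and the Irf3/7-/- mice were a double knockout line. Values of untreated Irf1-/- BMDCs and untreated Tmem173-/- BMDCs, 2 samples each, are set beside these groups. For Irf3, Irf7 and Bcl2l12, values of wild-type and Irf3/7-/- BMDCs treated with c-di-GMP for 18 h (25 µg/ml in the labels) are also given. BMDCs were grown from bone marrow of sex-matched mice, 6 to 12 weeks old, for 6 days with GM-CSF and IL-4, and the floating and loosely attached cells were taken without a sort. Such a culture holds DCs together with macrophages, granulocytes and their precursors. In bulk RNA, fewer cells of a type and less RNA per cell cannot be told apart.

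IRF3 and IRF7 are the transcription factors that carry signals of nucleic acid sensors, among them STING, to the genes for type I interferon. IRF3 is present in resting cells in a latent form, whereas IRF7 is itself induced by interferon and amplifies the response. Type I interferon acts through its receptor IFNAR and a complex that contains STAT2 and IRF9 on the interferon-stimulated response element of antiviral genes, and a low tonic activity of this circuit keeps a set of these genes transcribed in unstimulated myeloid cells. Interferon-γ acts through its own receptor and IRF1 on a partly different set, which includes the guanylate-binding proteins.

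The authors combined the replicates of each condition, so that each gene has a single FPKM per condition with the bounds of the authors' interval, and no spread between replicates and no p-value can be given. The number of reads behind a value cannot be read from FPKM. For 5844 genes with at least 10 FPKM in both conditions, the bounds lay at a median of 25.4% of the FPKM away from it in wild-type and 25.6% in Irf3/7-/- BMDCs. A gene was called higher or lower in Irf3/7-/- BMDCs when it differed more than 2-fold after adding 0.1 FPKM to each value and the authors' intervals did not overlap. Log2 differences are given on this scale as Irf3/7-/- minus wild type.

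Most genes had close values in the untreated cells of both genotypes. The difference was within 1.5-fold for 92.6% of the 11004 genes, and the median log2 difference was -0.01, with quartiles of -0.13 and 0.10. Called were 224 genes (2.04%), of which 129 (1.17%) were higher and 95 (0.863%) were lower in Irf3/7-/- BMDCs. More than 2-fold regardless of the intervals were 310 genes (2.82%), so that 86 had overlapping intervals. Only 36 of the called genes differed more than 4-fold, 19 higher and 17 lower. Of all 224 called genes, 80 had at least 10 FPKM in either condition, 50 higher and 30 lower. Against the same untreated wild-type condition, 527 of 11017 genes (4.78%) were called in untreated Irf1-/- and 1221 of 11101 genes (11.0%) in untreated Tmem173-/- BMDCs, which lack STING. These 3 comparisons share their wild-type samples.

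**Figure D1:**
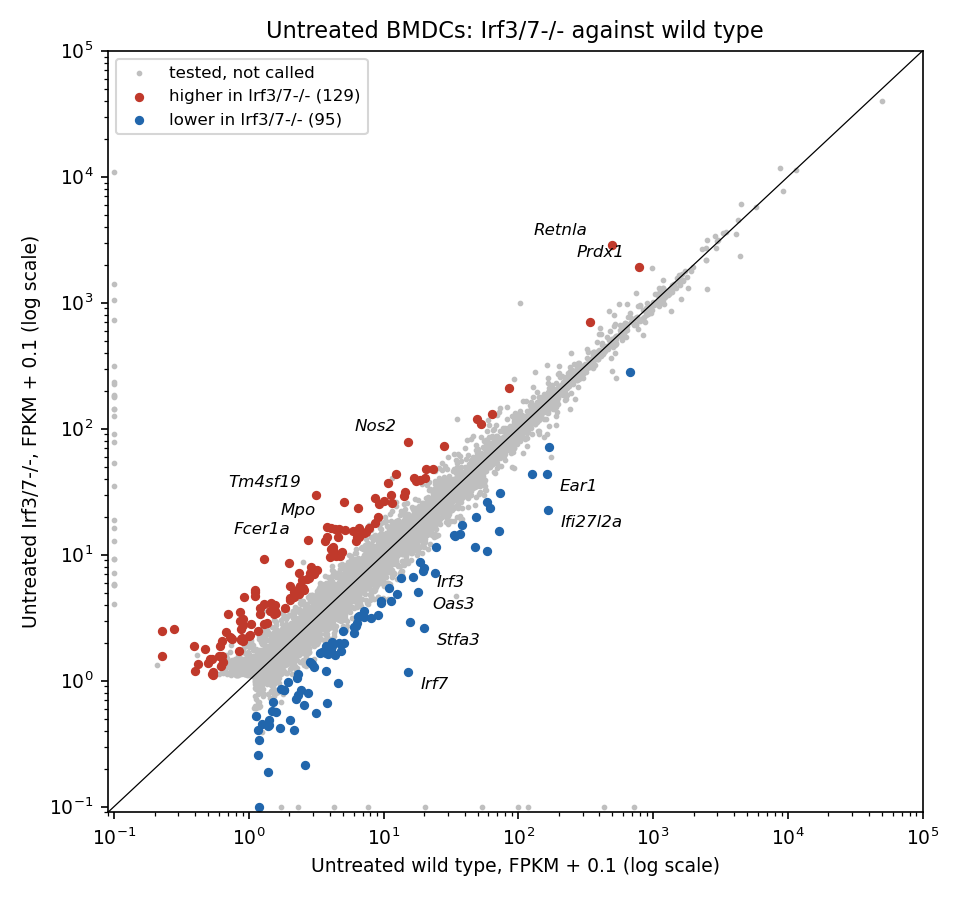
Each point is a tested gene, with FPKM + 0.1 in untreated wild-type BMDCs on the x axis and in untreated Irf3/7-/- BMDCs on the y axis, both on log scales. Red points are the 129 genes called higher and blue points the 95 called lower in Irf3/7-/- BMDCs. Most points lie along the diagonal, and grey points on the axes are genes listed at 0 in 1 condition, whose intervals overlapped.

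The targeted genes were read before all others. Irf7 (chromosome 7, 141263183 to 141266424, GRCm38) had 15.2 FPKM (authors' interval, 11.6–18.8) in untreated wild-type and 1.07 FPKM (0.59–1.55) in untreated Irf3/7-/- BMDCs. This log2 difference of -3.71 was the largest fall among called genes with at least 10 FPKM. Irf3 (chromosome 7, 44997648 to 45002848) was measured at 19.9 FPKM (15.4–24.5) in wild-type and 7.74 FPKM (5.55–9.96) in Irf3/7-/- BMDCs, a log2 difference of -1.36 with intervals well apart. Reads from exons that a targeted allele keeps still enter the FPKM, and the Irf3 signal left in the knockout does not show that protein was made. Untreated Irf1-/- and Tmem173-/- BMDCs had 20.2 and 20.7 FPKM of Irf3, close to wild type, but only 6.22 and 3.17 FPKM of Irf7. In the condition labelled c-di-GMP-treated Irf3/7-/-, in contrast, Irf3 was at 20.2 FPKM against 15.8 FPKM in treated wild-type BMDCs, while Irf7 was at 4.97 against 687 FPKM. That condition thus goes against its label for Irf3, and no result on the untreated cells rests on it.

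Bcl2l12, a BCL2 family gene whose locus (chromosome 7, 44986900 to 44997579) ends 68 bases from that of Irf3, was at 7.97 FPKM (5.71–10.2) in wild-type and 3.06 FPKM (1.90–4.23) in untreated Irf3/7-/- BMDCs. Its log2 difference of -1.35 was close to that of Irf3, and untreated Irf1-/- and Tmem173-/- BMDCs had 8.52 and 9.21 FPKM. In treated Irf3/7-/- BMDCs Bcl2l12 was at 7.72 FPKM, against 6.03 FPKM in treated wild-type BMDCs, as was the case for Irf3. Around Irf3, 59 further genes within 1 Mb were tested, with a median log2 difference of -0.02. Of these 1 was higher and 2 were lower, where 1.17% and 0.863% of all tested genes were. Besides Bcl2l12 these were Spib, an ETS factor of B cells and plasmacytoid DCs, at 6.20 and 2.64 FPKM, and Klk1b27, a kallikrein of a family of near-identical copies, at 0.82 and 4.49 FPKM. None of 34 genes within 1 Mb of Irf7 was called, and their median log2 difference was 0.04. Within 5 Mb the counts were 1 higher and 4 lower of 93 genes around Irf3, with the kallikreins Klk1b1 and Klk1b11 added to the lower ones, and 0 of 76 around Irf7.

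**Figure D2:**
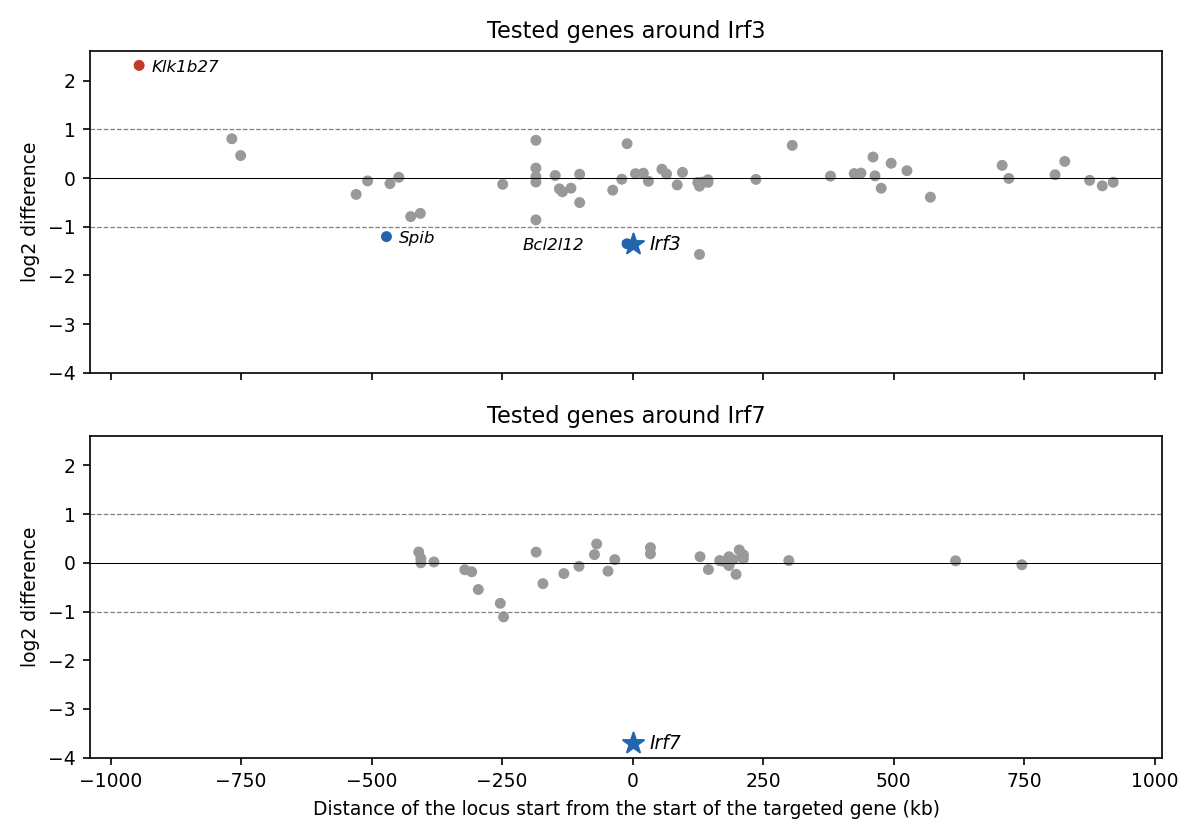
Log2 difference of each tested gene, untreated Irf3/7-/- minus untreated wild type, by the distance of its start from that of Irf3 (top) or Irf7 (bottom) in kb. Left out near Irf3 are Mir707 and Snord33, listed at 0 in wild type, with log2 differences of 10.5 and 8.45 but overlapping intervals and no call. Blue and red points are called lower and higher, grey points are not called, stars mark the targeted genes, and dashed lines mark 2-fold. Next to Irf3 lies Bcl2l12 at nearly the same difference, while no gene around Irf7 other than Irf7 itself was called.

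Interferon-induced antiviral genes, the longest list, had the most members lower in the untreated Irf3/7-/- BMDCs by count. As a share, more of the eosinophil markers were lower, 4 of 7 tested. Of 49 genes in the list of antiviral effectors 48 were tested, and 12 were lower and 0 higher, where 0.863% of all tested genes were lower. The difference was below 0 for 47 of the 48, with a median log2 difference of -0.64 against -0.01 over all tested genes. Ifi27l2a, a small interferon-induced mitochondrial protein, had the largest fall, from 165 FPKM (93.3–165) in wild-type to 22.5 FPKM (11.9–25.0) in Irf3/7-/- BMDCs. Its wild-type FPKM lay just above the upper bound of its own interval. Rtp4, an interferon-induced chaperone-like protein, was at 16.5 FPKM (12.5–20.4) and 6.50 FPKM (4.78–8.22), and Ifi44, an interferon-induced cytoplasmic protein, at 1.92 FPKM (1.29–2.54) and 0.39 FPKM (0.22–0.57). In each of these genes the intervals of both genotypes were clearly separated.

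The 2′-5′-oligoadenylate synthetases, which sense double-stranded RNA and activate RNase L, and their OAS-like relatives were lower almost throughout. Of 12 such genes listed, 8 were tested and 7 were lower, where 0.863% of all tested genes were lower. The log2 differences of the 8 lay between -2.50 and -0.66. Oas1g was at 3.69 FPKM (2.67–4.69) in wild-type and 0.57 FPKM (0.30–0.82) in Irf3/7-/- BMDCs. Oas3 was at 17.8 FPKM (13.8–21.9) and 4.95 FPKM (3.78–6.12). Oas2 was at 2.67 FPKM (1.98–3.37) and 0.69 FPKM (0.46–0.94). These are members of 1 gene cluster on chromosome 5, between 120730333 and 120907525, in which 5 of 6 tested genes were lower. The stretch was bounded by the called genes Oas2 and Oas1a and chosen after the values were seen. Oas1a in the same cluster was at 19.4 FPKM (14.97–23.8) and 7.35 FPKM (5.52–9.16), Oas1c at 1.86 and 0.88 FPKM, and Oas1b at 3.61 and 2.24 FPKM with overlapping intervals. Outside the tandem array, Oasl1, which limits Irf7 translation, was at 8.92 FPKM (6.78–11.1) and 3.22 FPKM (2.34–4.12). Oasl2 was at 33.1 FPKM (25.3–40.9) and 14.3 FPKM (10.9–17.6). The Oas1 copies are near-identical, and the counting may have divided reads between them.

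The IFIT genes encode proteins that bind foreign RNA at its 5′ end. All 3 in the table were lower, where 0.863% of all tested genes were. Ifit1 was at 5.89 FPKM (4.40–7.37) in wild-type and 2.27 FPKM (1.61–2.92) in Irf3/7-/- BMDCs. Ifit2 was at 6.52 FPKM (5.00–8.04) and 3.13 FPKM (2.35–3.92), just beyond 2-fold. Ifit3 was at 1.39 FPKM (0.92–1.87) and 0.48 FPKM (0.24–0.70). These levels are low in both genotypes, and the 3 genes lie side by side on chromosome 19 between 34550694 and 34650009, where no other gene was tested.

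The remaining 36 tested antiviral effectors did not pass. Isg15, a ubiquitin-like modifier, was at 57.7 FPKM in wild-type and 32.8 FPKM in Irf3/7-/- BMDCs, and Usp18, the protease that removes it, at 42.3 and 23.6 FPKM. The restriction factor Ifitm3 was at 191 FPKM (119–211) and 107 FPKM (66.2–117), with intervals apart but less than 2-fold. Ifitm3, Ifitm1, Ifitm2 and Ifitm6 of this list lie within 1 Mb of Irf7. Their log2 differences were -0.83, -0.55, -0.18 and -1.11, in that order, and none was called. Whether their place near the targeted gene bears on these values was not tested. Zbp1, a sensor of Z-form nucleic acid, was at 111 and 82.4 FPKM, Bst2, which tethers budding virions, at 155 and 119 FPKM, and the GTPase Mx1 at 28.4 and 27.6 FPKM. The difference within the list thus ranged from 7.33-fold for Ifi27l2a to next to none for Mx1. The summed level of all listed effectors was 1800 FPKM in wild-type and 1522 FPKM in Irf3/7-/- BMDCs.

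The other untreated knockouts, set against the same wild-type samples, are given side by side for these genes. In Irf1-/- and Tmem173-/- BMDCs Oasl2 was at 2.97 and 2.43 FPKM, and Rtp4 at 2.22 and 1.30 FPKM, both below the level in Irf3/7-/- BMDCs. Ifi27l2a was at 34.3 and 39.5 FPKM, above the 22.5 FPKM of Irf3/7-/- BMDCs. The levels of Ifit1 in Irf3/7-/- and Irf1-/- BMDCs, 2.27 and 2.20 FPKM, lay close together. Summed over the list, Irf1-/- BMDCs had 816.8 FPKM and Tmem173-/- BMDCs 1262 FPKM.

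**Figure D3:**
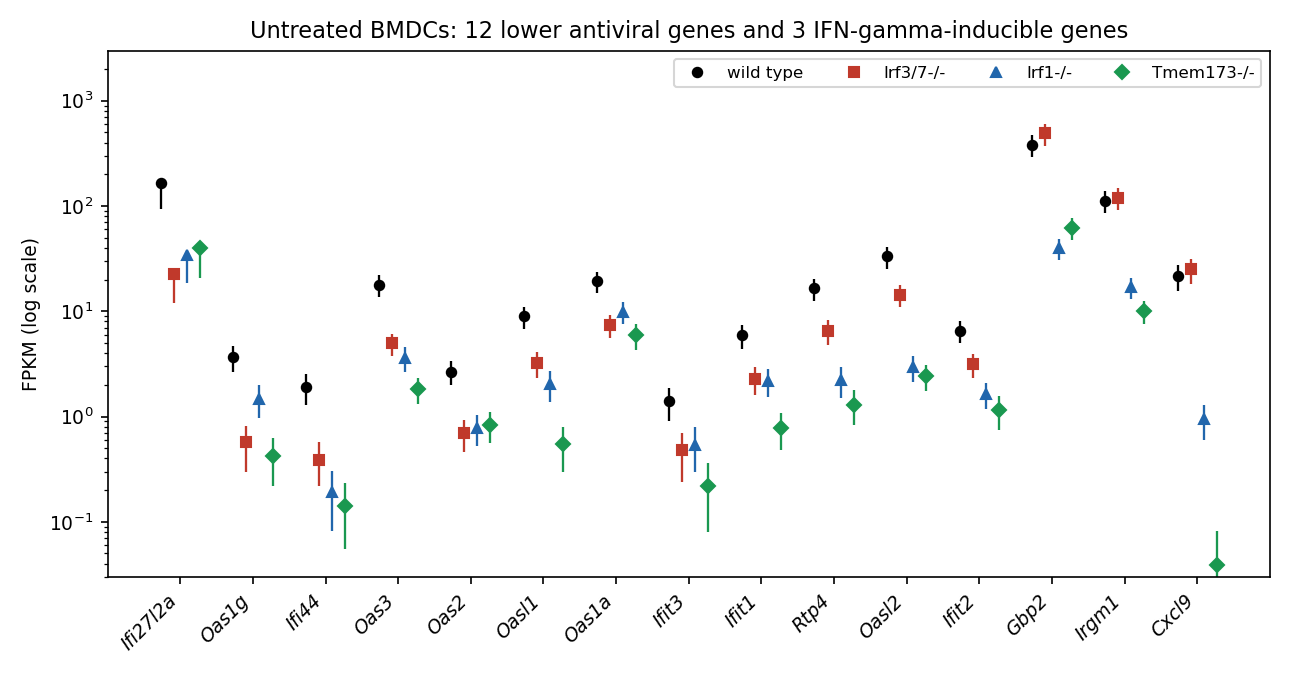
FPKM on a log scale in 4 untreated genotypes for the 12 antiviral effectors called lower in Irf3/7-/- BMDCs and, on the right, 3 interferon-γ-inducible genes. Points are the authors' combined values and vertical lines the authors' intervals, which a point can exceed. Black wild-type points lie above the red Irf3/7-/- points for the antiviral genes, whereas the black and red intervals overlap for Gbp2, Irgm1 and Cxcl9.

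To show the sequences through which IRF proteins and the interferon-activated complex can act on these genes, stretches just upstream of the transcription start are given for the 5 lower antiviral effectors, of 9 with a promoter in the RefSeq table, that hold the motif described next, with the letters of GRCm38.p6. Capitals mark matches to the core shared by interferon-stimulated response elements, GAAA followed by any 2 bases and another GAAA, on either strand.
Oas1a (chr5:120907526-120907565, minus strand): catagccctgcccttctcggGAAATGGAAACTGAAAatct
Oas1g (chr5:120887614-120887651, minus strand): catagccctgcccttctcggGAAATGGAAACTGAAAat
Oas3 (chr5:120777705-120777754, minus strand): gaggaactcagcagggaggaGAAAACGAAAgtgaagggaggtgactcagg
Ifit1 (chr19:34640765-34640833, plus strand): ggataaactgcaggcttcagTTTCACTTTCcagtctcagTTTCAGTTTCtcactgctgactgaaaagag
Ifit3 (chr19:34583353-34583436, plus strand): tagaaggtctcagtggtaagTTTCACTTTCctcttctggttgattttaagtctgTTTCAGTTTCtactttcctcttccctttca
In Oas1a and Oas1g the capitals hold 2 overlapping matches in a stretch of the same letters, directly before the start. Oas3 has a single match, and Ifit1 and Ifit3 each have 2 separate ones in the reverse orientation. A match within the 300 bases around the start was present in 5 of 9 antiviral effectors called lower and in 14 of 26 not called, 55.6% and 53.8%. Over all called genes it was present in 10 of 64 lower (15.6%) and 4 of 95 higher (4.21%) genes with a promoter in the RefSeq table, against 330 of 8269 tested genes (3.99%) and 1079 of all 27025 promoters (3.99%). A match is a description of the letters and no evidence of binding.

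Interferon-γ-inducible genes were not called in the Irf3/7-/- BMDCs, with 1 exception. In this list 21 of 23 genes were tested. Of these 1 was higher and 0 were lower, where 1.17% and 0.863% of all tested genes were. The median log2 difference was 0.09. None of 14 guanylate-binding protein and immunity-related GTPase genes, which attack the vacuoles of intracellular pathogens, was called, and their log2 differences lay between -0.19 and 0.35. Gbp2 was at 382 FPKM (291–473) in wild-type and 489 FPKM (371–606) in Irf3/7-/- BMDCs, and Irgm1 at 112 FPKM (86.3–138) and 119 FPKM (91.9–147). In Irf1-/- and Tmem173-/- BMDCs, the same genes were at 39.7 and 62.0 FPKM for Gbp2 and at 16.9 and 10.0 FPKM for Irgm1. The protease inhibitor Serpina3g was at 321 and 426 FPKM with overlapping intervals. The exception was Nos2, the inducible nitric oxide synthase, at 15.2 FPKM (11.3–19.1) in wild-type and 78.7 FPKM (58.7–98.6) in Irf3/7-/- BMDCs. In Irf1-/- and Tmem173-/- BMDCs Nos2 was at 6.10 and 0.10 FPKM, so the Irf3/7-/- value was the highest of the 4 untreated conditions.

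The components of the interferon circuit gave no call apart from the targeted genes, where 2.04% of all tested genes were called. None of 18 receptor, JAK-STAT and feedback genes was called, with a median log2 difference of -0.05. Stat2, at 42.4 FPKM in wild-type and 28.2 FPKM in Irf3/7-/- BMDCs, and Irf9, with 35.2 and 29.9 FPKM, were both below 2-fold. Among 8 tested interferon regulatory factor genes only Irf3 and Irf7 were called. Irf1 was at 149 FPKM (113–185) and 164 FPKM (118–211), and Irf5, which acts downstream of Toll-like receptors, at 342 FPKM (258–424) and 308 FPKM (219–399). None of 24 sensing genes was called, and STING itself (Tmem173) was at 103 FPKM (77.7–128) and 86.2 FPKM (65.0–107). The genes for type I interferon were below the filter: none of 13 in the table reached 1 FPKM in either untreated condition.

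Antigen presentation genes gave no call, where 2.04% of all tested genes were called. At that share, short lists would often hold no called gene. None of 17 MHC class I pathway genes was called, with log2 differences between -0.13 and 0.21, and B2m was at 3455 FPKM in wild-type and 3630 FPKM in Irf3/7-/- BMDCs. None of 11 class II genes was called, and H2-Aa was at 1031 and 1170 FPKM. Costimulatory and checkpoint genes likewise gave no call among 15. Cd83, a maturation marker, was at 143 FPKM (108–179) and 90.6 FPKM (68.2–113), and Ccr7, which guides mature DCs to lymph nodes, at 265 FPKM (199–331) and 171 FPKM (128–214). Both fell short of 2-fold and their intervals overlapped.

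The label as DCs was checked against defining markers. Itgax (CD11c) was at 210 FPKM in wild-type and 263 FPKM in Irf3/7-/- BMDCs, and Zbtb46, a factor of classical DCs, at 17.6 and 14.8 FPKM. Flt3 was low, at 1.26 and 1.79 FPKM, and Xcr1, Btla, Cd209a and Siglech did not reach 1 FPKM in either condition. Of 15 tested DC markers 1 was called, where 2.04% of all tested genes were. This was Clec9a, a receptor for dead-cell actin on cross-presenting DCs, at 1.02 FPKM (0.61–1.43) and 4.63 FPKM (3.45–5.81). Summed over the list, DC markers were at 1578 and 1542 FPKM. Markers of other cells that such cultures contain follow, and their part in the results above was not tested.

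Of 7 tested eosinophil markers 4 were lower and 0 higher, where 0.863% of all tested genes were lower, and the median log2 difference was -1.24. Prg2, the major basic protein of eosinophil granules, was at 676 FPKM (497–850) in wild-type and 283 FPKM (207–358) in Irf3/7-/- BMDCs. Epx, eosinophil peroxidase, was at 73.3 FPKM (56.2–90.4) and 31.0 FPKM (23.8–38.1). The eosinophil-associated ribonucleases Ear1 and Ear6 were at 163 and 43.2 FPKM and at 169 and 71.2 FPKM. Their relatives did not follow: Ear2 was at 382 and 365 FPKM, Ear11 was called higher at 340 and 702 FPKM, and Ear5 was called higher at 2.97 and 6.88 FPKM. The Ear genes are close copies that can share reads. Siglec5, the table's symbol for the eosinophil lectin Siglec-F, was at 33.0 and 47.6 FPKM. Irf1-/- and Tmem173-/- BMDCs had 127 and 214 FPKM of Prg2, both below the Irf3/7-/- level.

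Basophil and mast cell markers were called in 1 direction. Of 15 tested, 6 were higher, 0 lower and 9 not called, where 1.17% of all tested genes were higher, and the median log2 difference was 0.69. Fcer1a, the IgE-binding chain of the high-affinity receptor, was at 2.66 FPKM (1.67–3.68) in wild-type and 13.0 FPKM (9.15–16.9) in Irf3/7-/- BMDCs. Ms4a2, the β chain of the same receptor, was at 1.92 FPKM (1.32–2.51) and 5.52 FPKM (4.08–6.95). The basophil proteases Prss34 and Mcpt8 were at 27.9 and 72.4 FPKM and at 23.3 and 47.5 FPKM. Cpa3, the mast cell carboxypeptidase, was at 11.5 and 25.7 FPKM, and Gata2, a factor of both lineages, at 2.44 and 5.32 FPKM. Irf1-/- and Tmem173-/- BMDCs had 2.42 and 2.48 FPKM of Fcer1a and 25.0 and 20.6 FPKM of Prss34, close to wild type. The summed level of the list was 98.9 FPKM in wild-type and 203.9 FPKM in Irf3/7-/- BMDCs, while Irf1-/- and Tmem173-/- BMDCs reached 117 and 115 FPKM. The mast cell proteases Mcpt1, Mcpt2, Mcpt4, Tpsb2 and Tpsab1 did not reach 1 FPKM in either untreated condition.

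Neutrophil markers had calls in both directions. Of 24 tested, 5 were lower, 2 higher and 17 not called, where 0.863% of all tested genes were lower and 1.17% higher. The median log2 difference was -0.56. The lower ones were Ltf, Cd177 and the stefin A genes Stfa2, Stfa3 and BC100530, whose values follow with their family. Ltf, lactoferrin of the secondary granules, was at 15.6 FPKM (12.1–19.1) in wild-type and 2.85 FPKM (2.07–3.61) in Irf3/7-/- BMDCs. Cd177, a surface protein of mature neutrophils, was at 5.00 and 1.89 FPKM. Other secondary granule genes were not called, Ngp at 93.4 and 49.0 FPKM and Camp at 18.8 and 20.5 FPKM. Mpo, the peroxidase of primary granules made at the promyelocyte stage, was higher, at 3.70 FPKM (2.72–4.69) and 16.5 FPKM (12.6–20.3), and so was the primary granule protease cathepsin G (Ctsg), at 6.44 and 16.2 FPKM. The other primary granule proteases, Prtn3 and Elane, were at 6.39 and 16.2 FPKM and at 2.45 and 8.61 FPKM, but the authors' intervals of both genes reached down to 0. The alarmins S100a8 and S100a9, the most abundant members, were at 2531 and 1296 FPKM and at 1350 and 865 FPKM, below 2-fold. The summed neutrophil level was 4530 FPKM in wild-type and 2591 FPKM in Irf3/7-/- BMDCs, while Irf1-/- and Tmem173-/- BMDCs reached 2928 and 23127 FPKM. Untreated Irf1-/- and Tmem173-/- BMDCs had 24.7 and 19.1 FPKM of Mpo and 15.4 and 22.1 FPKM of Ctsg. Both genes thus had their lowest untreated value in wild type, and their rise was not particular to Irf3/7-/- BMDCs.

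The stefin A genes, inhibitors of cysteine cathepsins found in neutrophil precursors, made up 6 of the 15 largest falls. Of 7 tested members, 6 were lower, where 0.863% of all tested genes were lower. The lower ones lie in a cluster on chromosome 16 between 36156811 and 36455392. Stfa3 was at 19.9 FPKM in wild-type and 2.50 FPKM in Irf3/7-/- BMDCs, Stfa2 at 58.1 and 10.6 FPKM, and BC100530 at 71.4 and 15.3 FPKM. The members 2010005H15Rik, Gm5483 and Stfa2l1 were at 47.7 and 11.4, at 127 and 43.8, and at 61.4 and 23.3 FPKM. Stfa1 was at 18.0 and 10.6 FPKM and was not called. For Stfa3 in wild-type BMDCs and for Gm5483 in both genotypes the FPKM exceeded its own interval, and the copies are similar enough to share reads. In Irf1-/- BMDCs Stfa2 was at 67.3 FPKM, near wild type, and in Tmem173-/- BMDCs at 167 FPKM. Stfa3 differed: it was at 7.37 FPKM in Irf1-/- BMDCs, below the 19.9 FPKM of wild type with intervals apart. In Tmem173-/- BMDCs Stfa3 was at 113 FPKM. BC100530, 2010005H15Rik, Gm5483, Stfa2l1 and Stfa1 were at 77.7, 39.8, 101, 45.7 and 33.2 FPKM in Irf1-/- BMDCs, in that order.

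Macrophage markers were mixed. Of 20 tested, 3 were lower and 2 higher, where 0.863% and 1.17% of all tested genes were. The median log2 difference was 0.09, and the summed levels were 734 and 800 FPKM. Marco, a scavenger receptor, was at 1.30 FPKM (0.80–1.80) in wild-type and 0.09 FPKM (0–0.18) in Irf3/7-/- BMDCs. Cd14, the lipopolysaccharide co-receptor, was at 18.5 FPKM (12.01–23.7) and 8.57 FPKM (5.47–10.6), and Mertk, a receptor for apoptotic cells, at 4.89 and 2.39 FPKM. Mertk stood at the threshold and was not called after centring of the columns. Apoe, apolipoprotein E, was higher, at 6.21 FPKM (4.35–8.04) and 13.6 FPKM (9.76–17.5), and so was Lyve1, a hyaluronan receptor, at 0.76 and 2.85 FPKM. Of 8 tested monocyte markers 2 were lower and 0 higher, 6 lay below 0, and the median log2 difference was -0.46. The lower ones were Cd177, which is also on the neutrophil list, and Treml4, a receptor of circulating monocytes. Treml4 was at 2.17 and 0.95 FPKM and lost its call with a pseudocount of 1 FPKM, a minimum of 5 FPKM, or 3 standard errors in place of intervals apart, while Ly6c2 was at 169 and 105 FPKM, not called.

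T and NK cell transcripts were present in both genotypes. Of 21 tested markers 2 were higher and 0 lower, where 1.17% and 0.863% of all tested genes were. Above 0 lay 16, and the median log2 difference was 0.35. Gzma, a granzyme of cytotoxic lymphocytes, was at 349 FPKM (250–447) in wild-type and 315 FPKM (226–403) in Irf3/7-/- BMDCs, and Gzmb at 321 and 362 FPKM. The summed level of the list was 1217 and 1278 FPKM, against 98.3 and 29.7 FPKM for Irf1-/- and Tmem173-/- BMDCs, where Gzma was at 5.55 FPKM and listed at 0, respectively. The higher ones were Tbx21, the T-bet factor, at 4.86 FPKM (3.60–6.11) and 10.5 FPKM (7.87–13.0), and Klrb1c, the NK1.1 receptor, at 1.35 FPKM (0.86–1.86) and 4.05 FPKM (3.004–5.10). Only 3 of 10 B cell markers, 4 of 13 erythroid and megakaryocyte markers and 1 of 10 stromal markers were tested. Among these 1 was called, Pf4, described with the chemokines. None of 4 tested sex-specific genes was called: Ddx3y was at 14.4 and 15.7 FPKM, and Xist did not reach 1 FPKM in either condition.

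**Figure D4:**
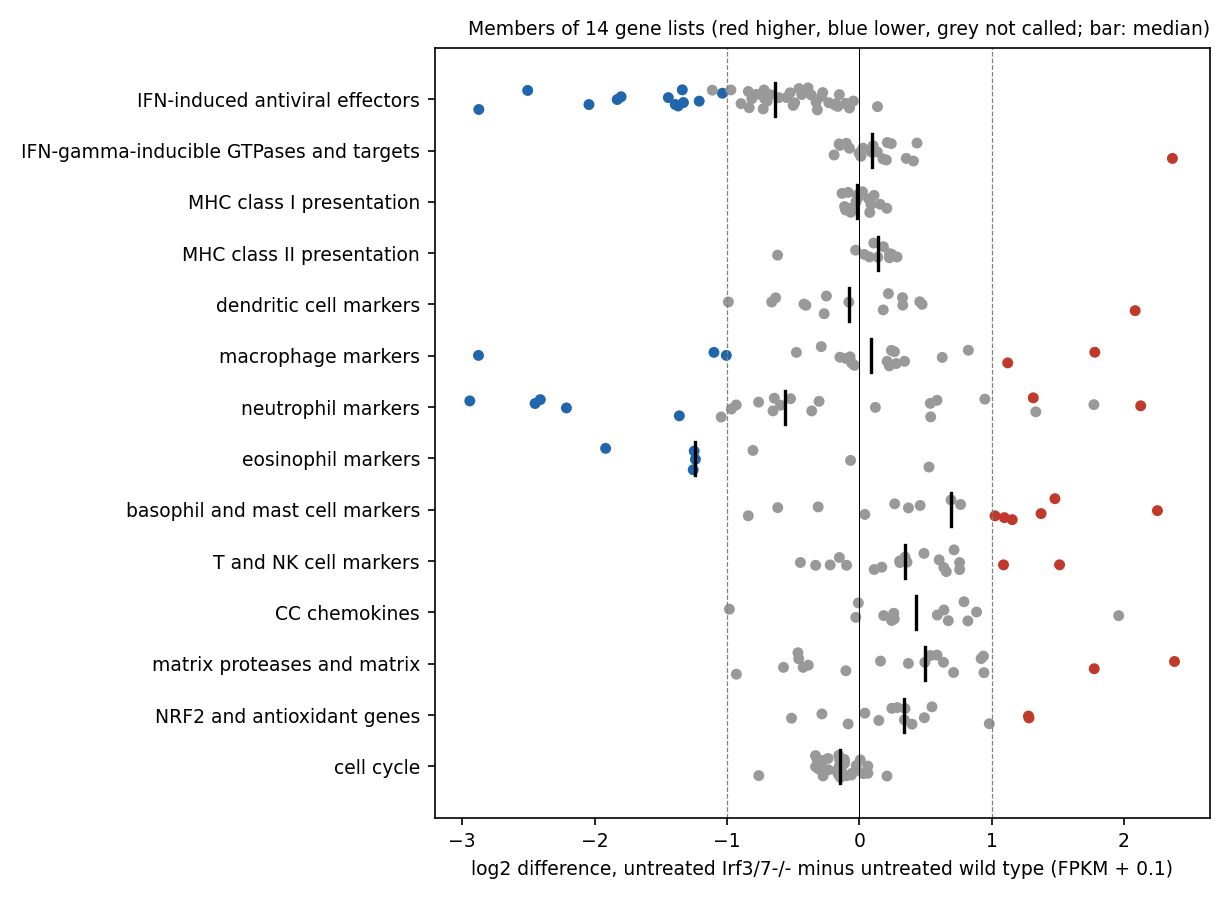
Each point is a tested member of the list named on the y axis, placed by its log2 difference (untreated Irf3/7-/- minus untreated wild type, FPKM + 0.1) on the x axis. Red points were called higher, blue points lower and grey points were not called, black bars are medians and dashed lines mark 2-fold. Antiviral effectors and eosinophil markers are shifted to the left, at medians of -0.64 and -1.24, and basophil and mast cell markers to the right, at 0.69, while MHC and cell cycle genes cluster near 0.

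The largest rise among called genes with at least 10 FPKM was that of Tm4sf19, a membrane protein with 4 transmembrane segments, from 3.07 FPKM (1.87–4.24) in wild-type to 29.5 FPKM (19.8–38.4) in Irf3/7-/- BMDCs, 9.34-fold. Irf1-/- and Tmem173-/- BMDCs had 8.99 and 4.88 FPKM. Retnla (RELMα), a secreted product of IL-4-exposed myeloid cells, followed at 500 FPKM (309–556) and 2855 FPKM (1749–3202). It varied widely among the untreated genotypes, Irf1-/- and Tmem173-/- BMDCs having 3267 and 3.84 FPKM. Only Retnla and Ear11 of 17 tested IL-4-inducible genes were called, both higher, where 1.17% of all tested genes were higher. The most abundant, the chemokines Ccl17 and Ccl22, were at 11439 and 11233 FPKM and at 5771 and 5743 FPKM. Wdfy1, an adaptor of Toll-like receptor signaling, was at 3.97 FPKM (2.16–5.78) in wild-type and 16.3 FPKM (11.3–21.4) in Irf3/7-/- BMDCs, with a like 16.1 FPKM (11.3–20.9) in the Irf1-/- BMDCs. Slc11a1, the phagosomal metal transporter NRAMP1, was at 6.42 FPKM (4.63–8.22) and 23.3 FPKM (17.2–29.2).

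Further large rises were found outside these groups. The caveolar coat gene Cav1 was at 12.3 FPKM (8.90–15.7) in wild-type and 43.2 FPKM (33.6–52.8) in Irf3/7-/- BMDCs, and the smooth muscle actin gene Actg2 at 3.59 and 12.7 FPKM. Spns2, an exporter of sphingosine 1-phosphate, was at 3.72 and 13.7 FPKM. Nppc, the C-type natriuretic peptide gene, was at 8.58 and 28.1 FPKM, and Clec2l, a C-type lectin-like gene, at 4.28 and 15.8 FPKM. For each of these 5 genes the untreated Irf1-/- value, from 7.43 FPKM for Spns2 to 25.7 FPKM for Nppc, lay between the values of wild-type and Irf3/7-/- BMDCs. So did the Tmem173-/- values of Cav1, Actg2, Spns2 and Clec2l, at 24.7, 7.09, 7.64 and 12.1 FPKM. Nppc was at 0.61 FPKM in Tmem173-/- BMDCs, below wild type.

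The collagenase Mmp13 was at 4.96 FPKM (3.67–6.24) in wild-type and 26.3 FPKM (20.04–32.4) in Irf3/7-/- BMDCs, and fibronectin (Fn1) at 10.8 FPKM (7.86–13.5) and 37.1 FPKM (26.3–49.7). These were the called genes among 19 tested matrix and matrix protease genes, where 1.17% of all tested genes were higher. The median log2 difference of the list was 0.50. The macrophage elastase Mmp12, at 977 FPKM (702–1238) and 1876 FPKM (1301–2450), was just below 2-fold. In Tmem173-/- BMDCs Fn1 was at 168 FPKM.

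Among the larger falls that belong to neither the antiviral nor the granulocyte genes was Cfb, complement factor B of the alternative pathway, at 23.9 FPKM (18.1–29.6) in wild-type and 7.11 FPKM (4.91–9.32) in Irf3/7-/- BMDCs. It was the only called gene among 12 tested complement genes, where 0.863% of all tested genes were lower. Cfb stood at 1.11 and 42.3 FPKM for Irf1-/- and Tmem173-/- BMDCs. Scd1, the stearoyl-CoA desaturase, was at 11.2 FPKM (8.34–14.1) and 4.23 FPKM (3.09–5.34). Adra2a, an adrenergic receptor, was at 12.6 FPKM (8.43–16.1) and 4.77 FPKM (3.09–6.25), while Irf1-/- and Tmem173-/- BMDCs had 22.2 and 23.9 FPKM. The C-type lectin Clec4b2 was lower at 24.5 and 11.4 FPKM.

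**Figure D5:**
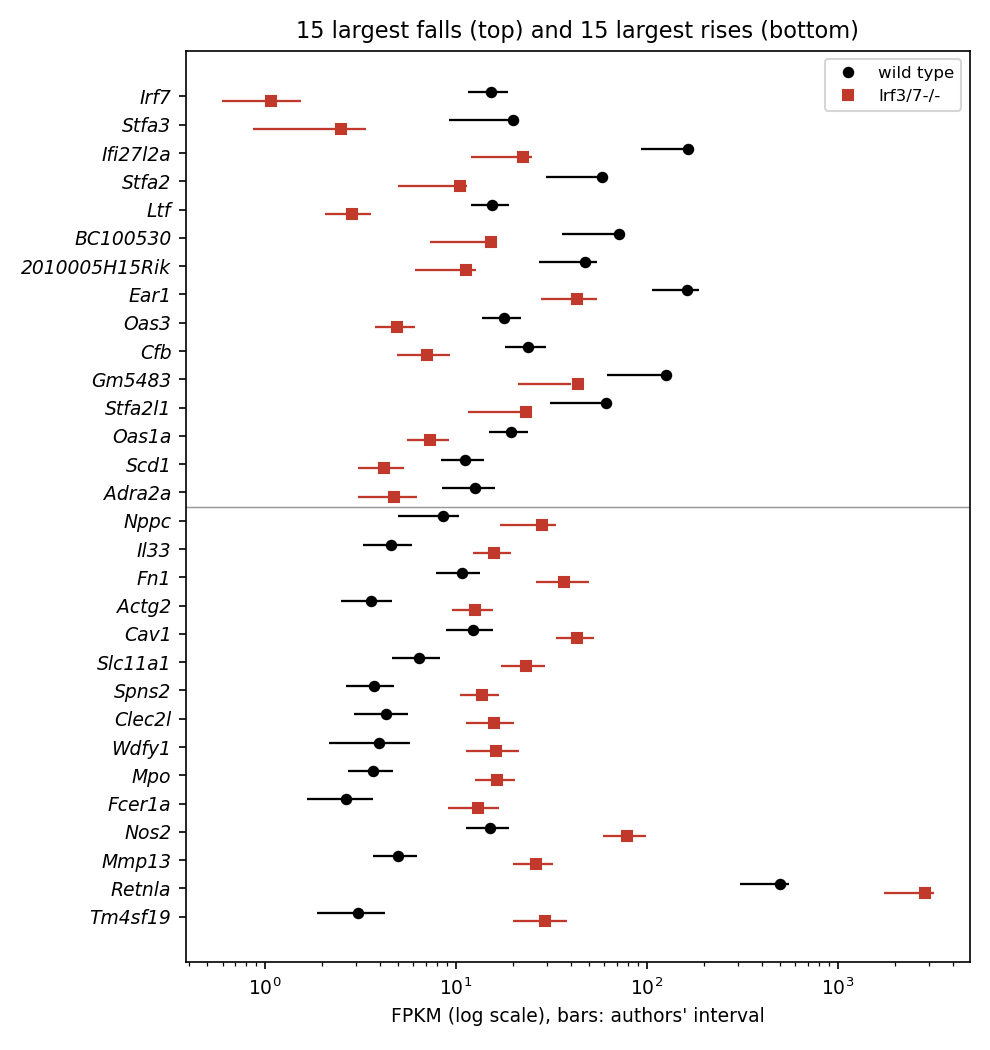
FPKM on a log scale in untreated wild-type (black) and untreated Irf3/7-/- BMDCs (red) for the 15 largest falls and the 15 largest rises among called genes with at least 10 FPKM in either condition. Points are the authors' combined values and horizontal lines the authors' intervals. Irf7 and Tm4sf19 stand at the ends, and in every row the lines of both genotypes are apart.

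Chemokine and cytokine genes gave 4 calls in the resting cells, all higher. None of 14 CC chemokine genes was called, although 11 lay above 0, with a median log2 difference of 0.43. Of 9 tested CXC genes 3 were higher, where 1.17% of all tested genes were higher: the platelet factors Ppbp, at 5.06 and 15.6 FPKM, and Pf4, at 17.3 and 38.2 FPKM, and Cxcl14, at 0.40 and 1.29 FPKM. In Tmem173-/- BMDCs Pf4 was at 199 FPKM. Il33, an alarmin of the IL-1 family, was the only called gene of 20 tested cytokine genes, at 4.58 FPKM (3.25–5.93) in wild-type and 15.9 FPKM (12.3–19.5) in Irf3/7-/- BMDCs, against 6.01 and 5.06 FPKM for Irf1-/- and Tmem173-/- BMDCs. Il1b was at 154 FPKM (119–189) and 85.9 FPKM (66.5–105), lower by less than 2-fold with intervals apart. None of 26 cytokine receptor genes and 7 chemokine receptor genes was called.

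In the lists of stress and metabolic genes all calls were higher, where 1.17% of all tested genes were higher. Prdx1, a peroxiredoxin, was at 788 FPKM (542–1037) in wild-type and 1916 FPKM (1427–2402) in Irf3/7-/- BMDCs, and heme oxygenase (Hmox1) at 85.9 FPKM (65.8–106) and 208 FPKM (159–258). They were the called genes of 15 NRF2 and antioxidant genes, with 12 above 0 and a median log2 difference of 0.34. Ch25h, the cholesterol 25-hydroxylase, was higher at 2.37 and 6.24 FPKM, alone among 21 cholesterol genes. Egr1, an immediate early factor, was at 8.95 and 19.7 FPKM, alone among 23 genes of that kind. None of 34 cell cycle genes was called, although 29 lay below 0, with a median log2 difference of -0.15.

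Altogether 619 distinct genes of 43 lists were tested. Of these 27 were higher and 30 lower in Irf3/7-/- BMDCs, where 1.17% and 0.863% of all tested genes were, and 20 lists had no called member. Besides those given above, there was no call among 12 NF-κB genes, 13 inflammasome genes, 13 eicosanoid genes, 20 glycolysis genes, 20 lysosomal genes, 22 adhesion genes and 16 genes of the unfolded protein response. Nfkbia was at 201 and 192 FPKM, Pycard at 117 and 93.2 FPKM, Alox5ap at 141 and 120 FPKM, Gapdh at 882 and 877 FPKM, Itgb2 at 259 and 326 FPKM, and Hspa5 at 461 and 426 FPKM. Cystatin C (Cst3), at 4409 FPKM (2731–5170) and 2366 FPKM (1475–2704), was the lysosomal gene with the highest level and did not reach 2-fold.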

How the data were processed

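RNA-seq was carried out on 16 BMDC samples, 2 per condition. Stranded mRNA libraries were made from total RNA. The authors combined the replicates of each condition in Cuffdiff (version 1.06 in the submitters' processing notes) and deposited a single FPKM per gene and condition, corrected for gene length and library size, with an interval and a status. Which aligner and annotation were used, and the confidence level of the interval, is not given in the sources used here. Nothing in the labels says whether replicates were separate animals or cultures. The notes name the build mm9, but the deposited loci are those of GRCm38: 21283 of 21423 genes with a RefSeq GRCm38.p6 gene of the same symbol on the same chromosome overlap it. Another knockout's set of 4 columns was not used.

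Values were read with pandas 2.3.3 on Python 3.11.15 and compared as log2(FPKM + 0.1). A gene was tested with at least 1 FPKM in either untreated condition and the status OK in both, which 108 genes of the table lacked. Called were genes that differed more than 2-fold with intervals apart. No test was run, since there is 1 value per condition, and columns were not rescaled. The FPKM lay outside its own interval in at least 1 condition for 95 tested and 3 called genes. The depth per sample is unknown from FPKM.

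Named were Irf3, Irf7, Bcl2l12, called genes within 1 Mb of Irf3 or Irf7, the 15 largest rises and falls with at least 10 FPKM, and up to 4 members per list, called members before abundant ones. Other genes were named after their values were seen. The members and lists were chosen with earlier results of these data known. Alternatives were pseudocounts of 1 and 0.01 FPKM, a minimum of 5 FPKM or none, thresholds of 1.5-fold and 4-fold, median centring, fold alone, and a difference above 3 standard errors taken from the intervals. Promoters (250 bases before to 50 after the start) came from RefSeq GRCm38.p6, matched by symbol for 8269 of 11004 tested genes.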

Additional observations from a re-analysis of the deposited data

How the results depend on the processing

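The number of called genes depended on the threshold. Called were 118 genes with a pseudocount of 1 FPKM (71 higher, 47 lower), 112 with a minimum of 5 FPKM (70 higher, 42 lower), 350 at 1.5-fold (194 higher, 156 lower) and 36 at 4-fold (19 higher, 17 lower), against 224 as reported. Without a minimum 324 were called, with a pseudocount of 0.01 FPKM 237, by fold alone 310, after median centring 221 and by 3 standard errors 226. Higher genes made up between 52.8% and 62.5% of the calls throughout. At 4-fold, 15 of the 57 called list genes and 3 of the 12 lower antiviral effectors were left. Near the targeted genes the count of 3 became 5 at 1.5-fold, 1 at 4-fold, 7 by fold alone and 5 within 5 Mb. Of 71 named called genes, 53 kept their call under the 8 alternatives other than 4-fold, 19 kept it at 4-fold and 14 under all 9. Ifit2, Ifit3, Spib, Gata2, Mcpt8 and Tbx21 were among those not called with a pseudocount of 1 FPKM. No paired analysis was possible because the table has 1 value per condition, and for the same reason no replicate was left out. The authors' intervals are the only measure of precision, and differences below 2-fold are at their edge.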

Other observations

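Of the 15 largest rises, 4 lie on chromosome 1 between 71585473 and 86670573, in the order Fn1, Slc11a1, Wdfy1 and Nppc. They were noticed after their values were seen. In this stretch 71 genes were tested, 4 were called, all higher (5.63%), and the median log2 difference was -0.03. Over all tested genes 2.04% were called and 1.17% higher, and on chromosome 1 the called share was 2.01%. The stretch was bounded by the called genes Fn1 and Nppc, so its share was partly set by that choice. Among the untreated genotypes each of the 4 had its own order. In Irf1-/- and Tmem173-/- BMDCs Wdfy1 was at 16.1 and 5.75 FPKM, whereas Slc11a1 was at 10.5 and 41.6 FPKM and Nppc at 25.7 and 0.61 FPKM.

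Several called genes outside the lists had high levels and were also chosen after their values were seen. Ocstamp, a membrane protein needed for fusion of osteoclasts, was at 63.2 FPKM in wild-type and 131 FPKM in Irf3/7-/- BMDCs, and the secreted protein gene Wfdc17 at 49.1 and 120 FPKM. Procr, the endothelial protein C receptor, was at 20.7 and 47.9 FPKM, and F3, tissue factor, at 9.20 and 25.0 FPKM. Lower were Cldn1, a claudin, at 48.6 and 19.9 FPKM, and Trf, transferrin, at 58.3 and 26.1 FPKM. Vcam1, an adhesion molecule, was higher at 7.64 and 16.2 FPKM.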
